A study of Homo sapiens with 8 samples.

Results

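The SLC25 genes encode mitochondrial carriers, and 44 of the 18216 genes in the table were taken as members because their symbol is SLC25A followed by a number alone. The 8 libraries held polyA RNA of IMR90 cells at passage 28, a fibroblast line from human lung. There were 4 groups of 2 libraries. They were DMSO, the solvent control, and Nutlin-3a at 3 µg/mL for 6, 9 and 12 h. Nutlin-3a is a small molecule that keeps MDM2 from binding p53. All cells grew under 3% oxygen and 5% carbon dioxide in DMEM with 10% serum, and treatment began on the day after seeding. No cells without p53 were analysed here, IMR90 is 1 cell line, and how long the DMSO cultures were kept has no record in the labels. The same DMSO libraries served all 3 times, and nothing says that the 2 libraries of a group came from separate cultures. P-values therefore rest only on the spread between these libraries, pooled over the groups and partly over genes of like level. This spread may be technical.

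Carriers of this family sit mostly in the inner mitochondrial membrane, which is closed to charged metabolites. They exchange ADP for ATP, bring in phosphate, and move di- and tricarboxylates, amino acids, acylcarnitines, nucleotides, cofactors and iron between matrix and cytosol. The proteins are made in the cytosol and reach the membrane through the TOM complex, small TIM chaperones and the TIM22 complex. In proliferating fibroblasts they connect respiration with fatty acid, nucleotide and amino acid synthesis.

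Each library had 21.9 to 33.6 M reads in genes (M is 1e6 reads). Over 9568 genes, the log2 difference within a pair of libraries had its widest SD for DMSO, 0.147, with 0.0972 for the 6 h pair, 0.0862 for the 9 h pair and 0.0882 for the 12 h pair. The p53 target genes used as a check of the labels rose at each time, CDKN1A, an inhibitor of cell-cycle kinases, with log2 changes of 3.47, 3.85 and 3.90, and MDM2, the ubiquitin ligase of p53, with 3.03, 3.10 and 3.13. All 10 fibroblast markers were in the table. Their summed normalized count per library was 926912 to 934119.9 with DMSO, 898465 to 907395 at 6 h, 1066171 to 1077025 at 9 h and 1107121 to 1122576 at 12 h, mostly from the collagen genes COL1A1 and COL1A2. Of the defining markers of other cell types, KRT5, KRT14, PECAM1 and CD3E had no row, and CDH1, CDH5 and PTPRC had at most 6.55 normalized counts. The summed level over 3 epithelial markers, mostly CLDN4, was 273 to 289 with DMSO, 307 to 328 at 6 h, 332 to 363 at 9 h and 359 to 393 at 12 h. Both sums were highest at 12 h, and their part in the results below was not tested. Single fibroblast markers did not all follow their sum. At 12 h, 4 of the 10 rose and 2 fell by the test given below, against 18.5% and 21.4% of all genes. PDGFRA had normalized counts of 5365 and 5179 with DMSO and 3873 and 3899 at 12 h. Over all libraries the sums were 23.7 to 59.6 over 3 endothelial markers, 743 to 988 over 3 immune markers, mostly CD68, and 6784 to 9135 over 4 smooth muscle and pericyte markers, mostly ACTA2.

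In the DMSO libraries the members spanned more than 3 orders of magnitude per length, read as normalized count per kb of exon (GENCODE v29 exon lengths). SLC25A5, an ADP/ATP carrier, was highest with 3294 and 3603 per kb, followed by SLC25A3, the phosphate carrier, with 1649 and 1846. These lengths join the exons of all annotated transcripts of a gene, 6.856 kb for SLC25A3 and 1.274 kb for SLC25A5. The order per kb depends on them. Not divided by length, the normalized counts were higher for SLC25A3 (11303 and 12659.6) than for SLC25A5 (4196 and 4591). SLC25A1, the citrate carrier, had 1179 and 1113 per kb and SLC25A39, a glutathione carrier, had 1177 and 1049. SLC25A1 and SLC25A39 overlapped and were not ordered beyond their spread, whereas SLC25A5 and SLC25A3 each lay above all members after them. SLC25A11, the oxoglutarate carrier, came next with 804 and 761 per kb, then SLC25A46, SLC25A24 and SLC25A32. SLC25A4, the ADP/ATP carrier isoform best known from heart and muscle, had 127 and 134 per kb. GENCODE v29 names 9 pseudogenes of SLC25A5, 5 each of SLC25A1 and SLC25A15, and 3 of SLC25A51. It names 2 each of SLC25A3, SLC25A24 and SLC25A39, and 1 for some other members. Reads that aligned in several places are not in the gene counts. SLC25A27, SLC25A34, SLC25A41 and SLC25A47 did not reach a value of 10 in 2 libraries and were not tested. Their normalized counts ranged from 0.913 to 4.09 for SLC25A27, 3.22 to 8.32 for SLC25A34, 0 to 2.74 for SLC25A41, and 0 to 4.09 for SLC25A47. For comparison, 3 reads correspond to a normalized count of 2.46 to 3.75, so levels near or under it could not be set apart from 0 at this depth.

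**Figure D1:**
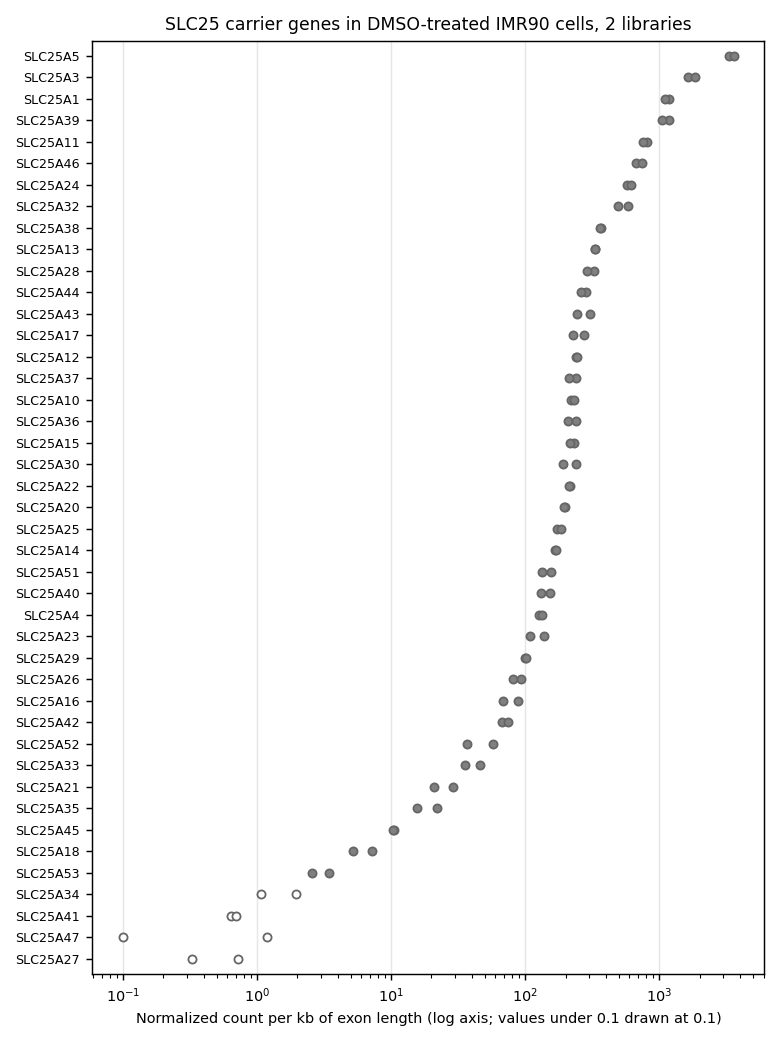
Normalized count per kb of exon length (horizontal log axis, 0 drawn at 0.1) of 43 of the 44 members in the 2 DMSO libraries (points), ordered by the mean. SLC25A5 and SLC25A3 lie highest, and the 4 members that were not tested (open points) lie lowest.

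Nutlin-3a changed the members in both directions. Of the 40 tested, 5 rose and 12 fell at 6 h, 5 rose and 10 fell at 9 h, and 6 rose and 13 fell at 12 h, relative to DMSO. A gene is said to have risen or fallen where limma's test on log2(normalized count + 1), adjusted over all 14074 genes tested by the method of Benjamini and Hochberg, gave less than 0.05. The members that fell were 30.0%, 25.0% and 32.5% of those tested, against 20.6%, 19.1% and 21.4% of all genes. Those that rose were 12.5%, 12.5% and 15.0%, against 16.1%, 16.2% and 18.5% of all genes. Whether the family differs from other genes in these shares was not tested. The median log2 change was −0.05, −0.01 and −0.02 over the members, and −0.01, 0.01 and 0.01 over all genes. In bulk RNA, fewer cells of a kind and less RNA per cell cannot be told apart. SLC25A40 at 12 h was the only called member past 2-fold. Where a call is given as lost without a library or under other settings (another scaling, filter, test or model), the log2 change there stands in brackets. The 12 h counts that rose and fell were 10 and 11 with TMM scaling, 10 and 11 with edgeR, and 11 and 9 with quantile normalization. At 6 and 9 h quantile normalization gave 7 that rose and 8 that fell, and 7 and 9, and with TMM scaling and with edgeR 6 rose and 9 fell at 6 h. Without 1 library, the number that rose was 9 at 6 h without DMSO replicate 2. At 9 h it was 8 without DMSO replicate 2, 3 without 9 h replicate 1 and 2 without 9 h replicate 2. At 12 h it was 3 without 12 h replicate 2. The number that fell at 6 h was 6 without 6 h replicate 1.

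**Figure D2:**
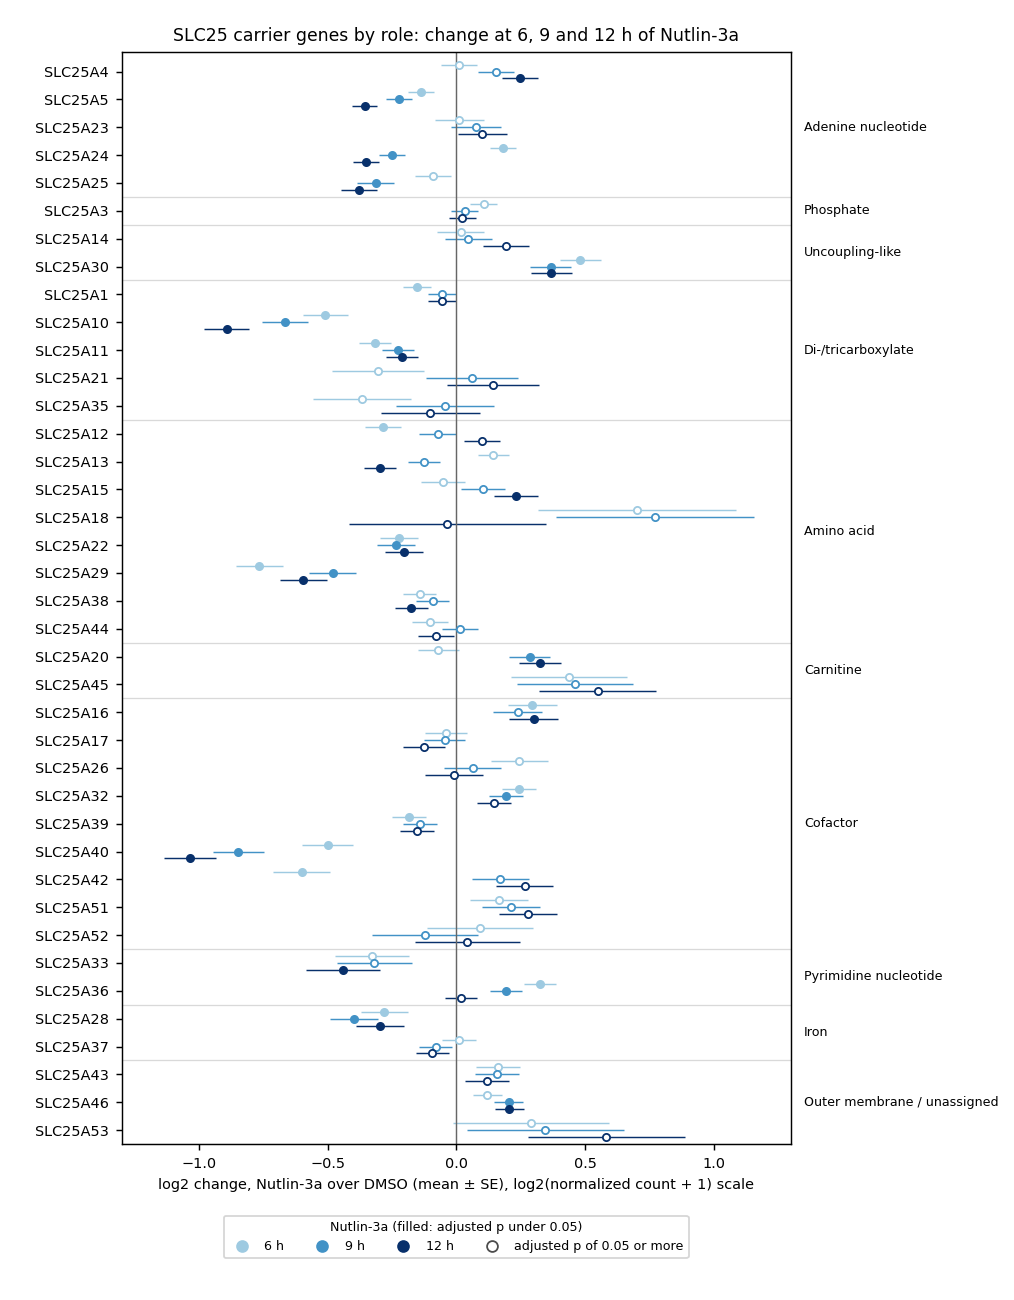
Log2 change, Nutlin-3a over DMSO, of 39 of the 40 tested members (rows, grouped by role) at 6, 9 and 12 h, with standard errors; filled points passed an adjusted p of 0.05. SLC25A40, SLC25A10 and SLC25A29 lie farthest to the left, and SLC25A30 lies right of 0 at each time.

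Among adenine nucleotide carriers the ADP/ATP exchangers SLC25A4 and SLC25A5 moved apart. SLC25A6 and SLC25A31, listed in the same role group, had no row in the table, so their levels are not known here. SLC25A4 had normalized counts of 564 and 596 with DMSO, 575 and 592 at 6 h, 658 and 632 at 9 h, and 676 and 700.3 at 12 h. Both 12 h libraries lay above both DMSO libraries, and the log2 change at 12 h was 0.25 ± 0.07 (adjusted p = 0.00844), after 0.01 ± 0.07 at 6 h and 0.15 ± 0.07 at 9 h, which were not called. SLC25A5, the isoform typical of dividing cells, had 4196 and 4591 with DMSO, 3974 and 3999 at 6 h, 3771 and 3745 at 9 h, and 3466 and 3390.2 at 12 h. Its libraries at each time lay below both DMSO libraries, with log2 changes of −0.14 ± 0.05 at 6 h, −0.22 ± 0.05 at 9 h and −0.36 ± 0.05 at 12 h (adjusted p = 0.0359, 0.00149 and 8.11e-06). Within a library, the log2 ratio of SLC25A4 to SLC25A5 was −2.36 and −2.27 at 12 h and −2.89 and −2.94 in DMSO. At 6 h it was −2.79 and −2.75 and at 9 h −2.52 and −2.56. The groups did not overlap in this ratio, a pair chosen with its values known. An exact permutation test of 2 against 2 libraries cannot go below p = 0.333. The call for SLC25A4 was lost at 12 h without 12 h replicate 2 (0.22), and for 12 against 6 h without 6 h replicate 1 (0.22), 12 h replicate 2 (0.21) and with DESeq2 (0.24). SLC25A4 was called at 9 h with quantile normalization (0.22). The call for SLC25A5 was lost at 6 h without DMSO replicate 2 (−0.07), either 6 h library (−0.13 and −0.14), either 9 h library or either 12 h library (−0.14) and under 7 other settings (−0.14 to −0.12).

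**Figure D3:**
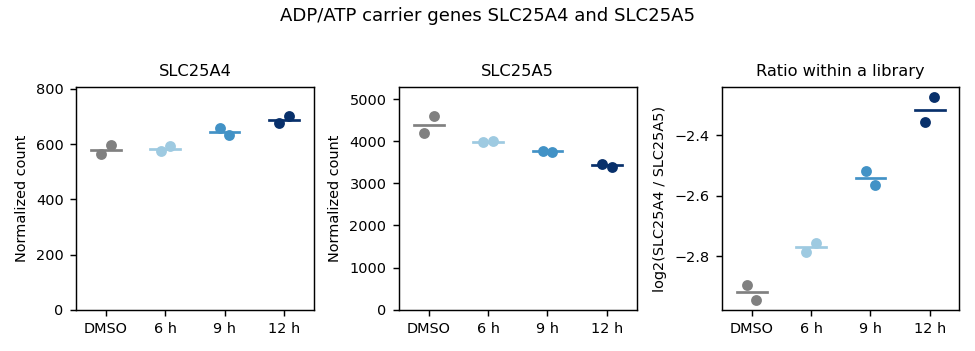
Normalized counts of SLC25A4 and SLC25A5 and the log2 ratio of the 2 within a library, for each library (points) with the group mean (bar). The ratio is highest at 12 h (−2.36 and −2.27) and lowest in DMSO (−2.89 and −2.94).

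The promoters of this pair are shown because the genes share a function and moved in opposite directions. Each runs from 250 bases before to 50 after the RefSeq start, 5′ to 3′ on the gene's strand (GRCh38.p14, a later build than the hg19 of the deposited data). The SLC25A4 window is chr4:185143016-185143315, plus strand, and the SLC25A5 window is chrX:119468194-119468493, plus strand. Capitals mark a CCAAT box (CCAAT on either strand).
SLC25A4: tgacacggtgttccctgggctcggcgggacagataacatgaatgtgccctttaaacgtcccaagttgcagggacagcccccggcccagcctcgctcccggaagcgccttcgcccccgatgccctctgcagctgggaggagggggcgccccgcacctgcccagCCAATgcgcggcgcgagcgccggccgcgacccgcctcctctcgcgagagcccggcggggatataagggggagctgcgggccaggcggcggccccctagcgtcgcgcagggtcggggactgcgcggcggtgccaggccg
SLC25A5: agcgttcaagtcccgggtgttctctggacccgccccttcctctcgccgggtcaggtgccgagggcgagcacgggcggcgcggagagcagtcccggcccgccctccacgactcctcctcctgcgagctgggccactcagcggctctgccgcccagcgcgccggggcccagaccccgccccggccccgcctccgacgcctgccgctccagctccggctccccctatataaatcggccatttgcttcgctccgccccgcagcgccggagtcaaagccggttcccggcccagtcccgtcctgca
SLC25A4 has 1 CCAAT box, and SLC25A5 has none in these letters. GC boxes (GGGCGG on either strand, not in capitals) occur at several places in the SLC25A5 window and not in that of SLC25A4. These letters say nothing of binding.

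SLC25A24 and SLC25A25 are calcium-regulated carriers that exchange ATP-Mg for phosphate. SLC25A24 had normalized counts of 3735 and 4003 with DMSO, 4444 and 4326 at 6 h, 3162 and 3338 at 9 h, and 3012 and 3054 at 12 h. It was higher in both 6 h libraries than in DMSO and lower at 9 and 12 h, with log2 changes of 0.18 ± 0.05 at 6 h, −0.25 ± 0.05 at 9 h and −0.35 ± 0.05 at 12 h (adjusted p = 0.00783, 0.000558 and 1.13e-05). SLC25A25 had 787 and 839 with DMSO, 787 and 739.9 at 6 h, 665 and 642 at 9 h, and 646 and 606 at 12 h, and fell by 0.31 at 9 h and 0.38 at 12 h on the log2 scale. Exons of an antisense gene, SLC25A25-AS1, overlap SLC25A25. That gene had 27.4 and 12.9 with DMSO, 11.3 and 10.6 at 6 h, 20.9 and 15.5 at 9 h, and 12.3 and 25.0 at 12 h, and the labels do not state whether reads were counted by strand. Antisense genes known only by clone names likewise overlap 20.8% of the SLC25A24 exons. SLC25A23, the third such carrier tested, had log2 changes of 0.01 ± 0.10 at 6 h, 0.08 ± 0.10 at 9 h and 0.10 ± 0.10 at 12 h, none of which was called. SLC25A3, the phosphate carrier, was not called either, with log2 changes of 0.11 ± 0.05 at 6 h, 0.03 ± 0.05 at 9 h and 0.02 ± 0.05 at 12 h. Its normalized counts were 11303 and 12659.6 with DMSO, 12532 and 13243 at 6 h, 11873 and 12610.3 at 9 h, and 12182 and 12122 at 12 h, so the spread of the DMSO libraries covered all others but 1. The call for SLC25A24 was lost at 6 h without 6 h replicate 1 (0.16) and with no intensity trend (0.18). The call for SLC25A25 was lost for 12 against 6 h without 6 h replicate 1 or without 12 h replicate 2 (−0.24). SLC25A23 (0.25 at 9 h, 0.27 at 12 h) was called without DMSO replicate 1. SLC25A3 (0.19 at 6 h, 0.11 at 9 h, 0.10 at 12 h) was called without DMSO replicate 2.

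SLC25A30, a carrier related to the uncoupling proteins, was among the members with the largest increases. It had normalized counts of 713 and 891 with DMSO, 1128 and 1097 at 6 h, 1036 and 1019 at 9 h, and 1007 and 1052 at 12 h. All Nutlin-3a libraries lay above both DMSO libraries, and the log2 changes were 0.48 ± 0.08 at 6 h, 0.37 ± 0.08 at 9 h and 0.37 ± 0.08 at 12 h (adjusted p = 6.98e-05, 0.00112 and 0.000879). Without DMSO replicate 1 the changes were 0.32, 0.21 and 0.21, all still called. SLC25A14, also related to the uncoupling proteins, had log2 changes of 0.02 ± 0.09 at 6 h, 0.05 ± 0.09 at 9 h and 0.19 ± 0.09 at 12 h and was not called. UCP2, an uncoupling protein whose symbol falls outside the family pattern, had 520.0 and 477 with DMSO, 590.4 and 506 at 6 h, 688 and 625 at 9 h, and 603 and 679 at 12 h. It rose at 9 h (0.40 ± 0.09) and 12 h (0.36 ± 0.09). The call for SLC25A30 was lost at 9 h with no intensity trend (0.37). SLC25A14 was called at 12 h with quantile normalization (0.27).

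Of the 5 tested di- and tricarboxylate and oxoacid carriers, 3, 2 and 2 fell at 6, 9 and 12 h, beside 20.6%, 19.1% and 21.4% of all genes. SLC25A10, which exchanges malate or succinate for phosphate, fell most. It had normalized counts of 445 and 466 with DMSO, 330.2 and 309 at 6 h, 289 and 285 at 9 h, and 239 and 251 at 12 h. Libraries of each later time lay below those of the time before. The log2 changes were −0.51 ± 0.09 at 6 h, −0.66 ± 0.09 at 9 h and −0.89 ± 0.09 at 12 h (adjusted p = 0.000119, 4.54e-06 and 5.9e-08), a change of −46.1% in level at 12 h. In GENCODE v29, 60.4% of the SLC25A10 exon length is shared with AC139530.2 on the same strand, which has no row in the table, so its count is uncertain. SLC25A11, the oxoglutarate and malate exchanger of the malate-aspartate shuttle, had 1526 and 1443 with DMSO, 1171 and 1211 at 6 h, 1219 and 1320.0 at 9 h, and 1327 and 1240.4 at 12 h. It was lower at each time, with log2 changes of −0.32 ± 0.06 at 6 h, −0.23 ± 0.06 at 9 h and −0.21 ± 0.06 at 12 h. RNF167 lies on the opposite strand and overlaps 12.9% of the SLC25A11 exons in GENCODE v29. SLC25A1, which exports citrate for fatty acid synthesis, had 2101 and 1984 with DMSO, 1785 and 1894 at 6 h, 1953 and 1978 at 9 h, and 1977 and 1949 at 12 h, and a call only at 6 h (−0.15 ± 0.05, adjusted p = 0.0345). SLC25A21, the oxoadipate carrier, and SLC25A35, whose substrate in human cells is uncertain, ranged from 55.0 to 81.7 and from 51.9 to 85.0 normalized counts and were not called. The call for SLC25A11 was lost at 9 h without 9 h replicate 1 (−0.17) and with no intensity trend (−0.23), and at 12 h without 12 h replicate 2 (−0.16) and with quantile normalization (−0.15) and with no intensity trend (−0.21). The call for SLC25A1 was lost at 6 h without DMSO replicate 1 or without 6 h replicate 1 (−0.11), either 9 h library or either 12 h library (−0.15) and under 8 other settings (−0.15 to −0.12). SLC25A21 (−0.53 at 6 h, 0.45 for 12 against 6 h) was called without DMSO replicate 1. SLC25A21 (0.45 for 12 against 6 h) and SLC25A35 (−0.60 at 6 h) were called without DMSO replicate 2. SLC25A21 was called for 12 against 6 h with group weights (0.45) and only the 2 groups compared (0.45).

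**Figure D4:**
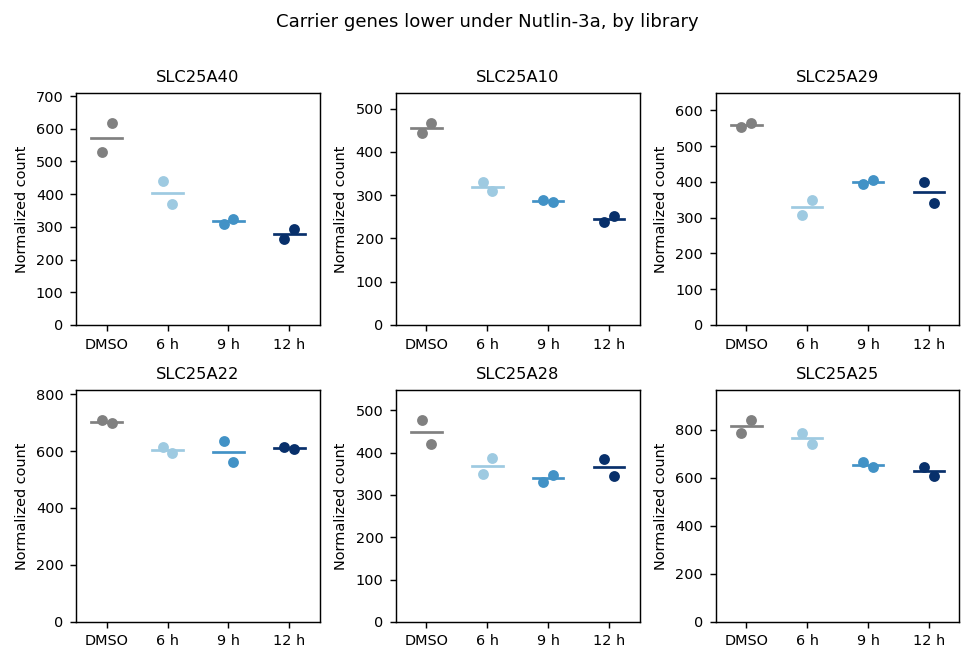
Normalized counts by library (points) and group mean (bar) of 6 members that fell, in DMSO and after 6, 9 and 12 h of Nutlin-3a. SLC25A40 and SLC25A10 step down at each time, while SLC25A29 has its lowest mean at 6 h.

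SLC25A39 and SLC25A40 carry glutathione, the main thiol antioxidant, into mitochondria. SLC25A40 had normalized counts of 528 and 617 with DMSO, 439 and 370.0 at 6 h, 309.7 and 324 at 9 h, and 262 and 295 at 12 h. All Nutlin-3a libraries lay below both DMSO libraries, and each later time lay below the one before. The log2 changes were −0.50 ± 0.10 at 6 h, −0.85 ± 0.10 at 9 h and −1.04 ± 0.10 at 12 h (adjusted p = 0.00054, 1.04e-06 and 4.64e-08), a change of −51.2% in level at 12 h. SLC25A39 had 1934 and 1725 with DMSO, 1529 and 1696 at 6 h, 1619 and 1698 at 9 h, and 1697 and 1593 at 12 h, with log2 changes of −0.18 ± 0.07 at 6 h, −0.14 ± 0.07 at 9 h and −0.15 ± 0.07 at 12 h and a call only at 6 h. The log2 ratio of SLC25A39 to SLC25A40 within a library was 1.87 and 1.48 in DMSO, 1.80 and 2.19 at 6 h, 2.38 and 2.38 at 9 h and 2.69 and 2.43 at 12 h, a pair chosen with its values known. One 6 h library lay within the DMSO range, and the 9 and 12 h libraries lay above it. The call for SLC25A39 was lost at 6 h without DMSO replicate 1 (−0.10), 6 h replicate 1 (−0.11), either 9 h library or either 12 h library (−0.18) and under 8 other settings (−0.18 to −0.15). SLC25A39 (−0.22 at 9 h, −0.23 at 12 h) was called without DMSO replicate 2.

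SLC25A40 starts 133 bases from DBF4, which encodes the activating subunit of the replication kinase CDC7 and runs the other way. DBF4, named here after its values were seen, had normalized counts of 867 and 884 with DMSO, 482 and 446 at 6 h, 315 and 349 at 9 h, and 249.6 and 301 at 12 h. Its log2 changes were −0.92 ± 0.09 at 6 h, −1.40 ± 0.09 at 9 h and −1.67 ± 0.09 at 12 h. Both genes fell at each time. Their annotated exons overlap by 121 bases on opposite strands, 2.99% of SLC25A40's exon length, and the part of this overlap in the counts was not tested. The promoter of SLC25A40 is shown because this member fell most and its window overlaps that of DBF4 by 232 bases. The window is as above, at chr7:87876311-87876610, minus strand. Capitals mark CHR, the cell-cycle genes homology region (TTTGAA on either strand).
SLC25A40: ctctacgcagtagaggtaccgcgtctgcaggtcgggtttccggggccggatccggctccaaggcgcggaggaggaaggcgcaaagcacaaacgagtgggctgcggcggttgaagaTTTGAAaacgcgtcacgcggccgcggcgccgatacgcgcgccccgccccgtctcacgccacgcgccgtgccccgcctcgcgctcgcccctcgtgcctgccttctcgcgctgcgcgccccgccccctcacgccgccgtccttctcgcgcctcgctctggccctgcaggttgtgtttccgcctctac
The CHR letters begin 135 bases before the start of SLC25A40. Across all RefSeq windows of this length 15.2% hold these letters, and 15.2% of the members' windows do.

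The members linked to coenzyme A, SLC25A42 and SLC25A16, were called in different directions at 6 h. SLC25A42 had 211 and 231 with DMSO, 136 and 155 at 6 h, 249 and 249 at 9 h, and 287 and 246 at 12 h. It was lowest in both 6 h libraries and above both DMSO libraries at 9 and 12 h, with log2 changes of −0.60 ± 0.11 at 6 h, 0.17 ± 0.11 at 9 h and 0.27 ± 0.11 at 12 h, of which the 6 h value was called (adjusted p = 0.000245). SLC25A16 had 444 and 579 with DMSO, 653 and 593 at 6 h, 595 and 602 at 9 h, and 621 and 629 at 12 h. It rose at 6 h (0.30 ± 0.10) and 12 h (0.30 ± 0.10) and was not called at 9 h (0.24 ± 0.10), and 1 DMSO library lay near the Nutlin-3a values. Without DMSO replicate 2 the SLC25A16 changes were 0.49 at 6 h and 0.49 at 12 h, still called. The call for SLC25A16 was lost at 6 h without DMSO replicate 1 (0.10), 6 h replicate 1 (0.23) and under 4 other settings (0.28 to 0.30), and at 12 h without DMSO replicate 1 (0.11), either 12 h library (0.31 and 0.29) and with no intensity trend (0.30). SLC25A42 (0.38 at 12 h) was called without 12 h replicate 2. SLC25A42 (0.33 at 12 h) and SLC25A16 (0.43 at 9 h) were called without DMSO replicate 2. SLC25A42 was called at 12 h with TMM scaling (0.29), quantile normalization (0.34) and edgeR (0.30). SLC25A16 was called at 9 h with TMM scaling (0.26), quantile normalization (0.31), group weights (0.24) and edgeR (0.25).

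SLC25A32, which carries folate into mitochondria, had normalized counts of 1412 and 1680.2 with DMSO, 1811 and 1833 at 6 h, 1773 and 1753 at 9 h, and 1724 and 1685 at 12 h. It rose at 6 h (0.24 ± 0.07) and 9 h (0.19 ± 0.07) and was not called at 12 h (0.15 ± 0.07). At 12 h both libraries lay above both DMSO libraries. In GENCODE v29, 99.2% of its exon length overlaps other genes, chiefly AC012213.5 on the same strand, which has no row in the table, so its count is uncertain too. SLC25A26, the S-adenosylmethionine carrier, SLC25A17, a peroxisomal carrier, and SLC25A51, the NAD carrier, were not called at any time, nor was SLC25A52, a close copy of SLC25A51 whose reads are uncertain for that reason. Their log2 changes at 12 h were −0.01 ± 0.11, −0.12 ± 0.08, 0.28 ± 0.11 and 0.04 ± 0.20. Without DMSO replicate 2 the SLC25A32 changes were 0.37 at 6 h and 0.32 at 9 h, still called. The call for SLC25A32 was lost at 6 h without DMSO replicate 1 (0.12), 6 h replicate 2 (0.23) and with no intensity trend (0.24), and at 9 h without DMSO replicate 1 (0.07), either 9 h library (0.19 and 0.20) and under 4 other settings (0.19). SLC25A26 (0.39 at 6 h, −0.40 for 12 against 6 h) was called without 6 h replicate 1. SLC25A51 (0.28 at 12 h) was called without 9 h replicate 1. SLC25A51 (0.38 at 9 h, 0.28 at 12 h) was called without 9 h replicate 2. SLC25A26 (−0.25 for 12 against 6 h) and SLC25A17 (−0.26 at 12 h) were called without DMSO replicate 1. SLC25A32 (0.27 at 12 h), SLC25A26 (0.35 at 6 h, −0.25 for 12 against 6 h) and SLC25A51 (0.28 at 6 h, 0.33 at 9 h, 0.39 at 12 h) were called without DMSO replicate 2. SLC25A26 was called at 6 h with quantile normalization (0.30), and for 12 against 6 h with group weights (−0.25) and only the 2 groups compared (−0.25). SLC25A32 was called at 12 h with TMM scaling (0.17), quantile normalization (0.20) and edgeR (0.17). SLC25A51 was called at 12 h with TMM scaling (0.30), quantile normalization (0.35) and edgeR (0.30).

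Of 8 tested amino acid carriers, 3, 2 and 4 fell at 6, 9 and 12 h, beside 20.6%, 19.1% and 21.4% of all genes, and 1 rose at 12 h. Among the 4 that fell at 12 h, the calls of SLC25A22 and SLC25A38 were lost with TMM scaling, quantile normalization, edgeR and DESeq2. SLC25A29, which carries basic amino acids, had normalized counts of 555 and 564 with DMSO, 309 and 349.8 at 6 h, 395 and 407 at 9 h, and 400.2 and 342 at 12 h. All Nutlin-3a libraries lay below both DMSO libraries, with the lowest mean at 6 h. The log2 changes were −0.77 ± 0.09 at 6 h, −0.48 ± 0.09 at 9 h and −0.59 ± 0.09 at 12 h (adjusted p = 1.24e-06, 0.000301 and 2.25e-05). SLC25A22, a glutamate carrier, had 709 and 697 with DMSO, 614 and 592 at 6 h, 634 and 563 at 9 h, and 613 and 609 at 12 h and fell at each time (−0.22, −0.23 and −0.20). PANO1 on the opposite strand overlaps 15.2% of its exons, and 14.3% of the SLC25A29 exons overlap other genes, mostly on the opposite strand. SLC25A18, the other glutamate carrier, had 8.32 to 27.9 normalized counts and was not called. SLC25A15, the ornithine carrier, had 365 and 342 with DMSO, 329 and 352 at 6 h, 365 and 393 at 9 h, and 412 and 418 at 12 h, and rose at 12 h (0.23 ± 0.09). SLC25A38, the glycine carrier used in heme synthesis, had log2 changes of −0.14 ± 0.06 at 6 h, −0.09 ± 0.06 at 9 h and −0.18 ± 0.06 at 12 h, with a call at 12 h (adjusted p = 0.0345). SLC25A44, which carries branched-chain amino acids, was not called (−0.10, 0.01 and −0.08). The call for SLC25A22 was lost at 6 h without either 6 h library (−0.25 and −0.19) and under 6 other settings (−0.22 to −0.15), at 9 h without 9 h replicate 2 (−0.15) and under 4 other settings (−0.23 to −0.16), and at 12 h without DMSO replicate 1 (−0.19), either 12 h library (−0.21 and −0.20) and under 8 other settings (−0.20 to −0.11). The call for SLC25A15 was lost at 12 h without DMSO replicate 2 (0.19), either 12 h library (0.24 and 0.22) and under 4 other settings (0.23). The call for SLC25A38 was lost at 12 h without DMSO replicate 1 (−0.16), either 9 h library (−0.18), either 12 h library (−0.21 and −0.14) and under 7 other settings (−0.18 to −0.08). SLC25A18 (−1.37 for 12 against 6 h) was called without 12 h replicate 1.

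The aspartate-glutamate carriers SLC25A12 and SLC25A13, both part of the malate-aspartate shuttle, moved in opposite ways over time. SLC25A12 had normalized counts of 709.6 and 721 with DMSO, 569 and 605 at 6 h, 652 and 709 at 9 h, and 768 and 764 at 12 h. It was lowest in the 6 h libraries, where it fell (−0.28 ± 0.07, adjusted p = 0.00319), and was highest in the 12 h libraries (0.10 ± 0.07 against DMSO, not called). SLC25A13 had 1064 and 1066 with DMSO, 1139.5 and 1216 at 6 h, 969 and 985 at 9 h, and 881 and 852 at 12 h. It was highest at 6 h (0.14 ± 0.06, not called) and fell at 12 h (−0.30 ± 0.06, adjusted p = 0.000578). The log2 ratio of SLC25A12 to SLC25A13 within a library was −0.58 and −0.56 in DMSO, −1.0 and −1.0 at 6 h, −0.57 and −0.47 at 9 h and −0.20 and −0.16 at 12 h. This pair, too, was chosen with its values known. The call for SLC25A12 was lost at 6 h without 6 h replicate 1 (−0.24). SLC25A12 was called at 12 h with quantile normalization (0.20). SLC25A13 was called at 6 h with TMM scaling (0.16), quantile normalization (0.20) and edgeR (0.16).

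SLC25A20, the carnitine-acylcarnitine carrier that brings fatty acids to beta-oxidation, rose at 9 and 12 h. It had normalized counts of 370.4 and 369 with DMSO, 350.2 and 354 at 6 h, 434 and 467 at 9 h, and 453 and 472 at 12 h, so that the 6 h libraries lay below DMSO and the 9 and 12 h libraries above it. The log2 changes were −0.07 ± 0.08 at 6 h, 0.28 ± 0.08 at 9 h and 0.32 ± 0.08 at 12 h (adjusted p = 0.541, 0.00909 and 0.00298). SLC25A45, grouped here with it, had 27.9 to 45.0 normalized counts. All its Nutlin-3a libraries lay above both DMSO libraries, but it was not called under the settings used for the main values (0.44 ± 0.23 at 6 h, 0.46 ± 0.23 at 9 h and 0.55 ± 0.23 at 12 h). The call for SLC25A20 was lost at 9 h without 9 h replicate 2 (0.23) and with DESeq2 (0.29) and with the authors' deposited table (0.29). SLC25A45 was called at 6 h with no intensity trend (0.44), at 9 h with no intensity trend (0.46), and at 12 h with TMM scaling (0.57), no intensity trend (0.55) and edgeR (0.60).

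SLC25A36 and SLC25A33 carry pyrimidine nucleotides for mitochondrial DNA and RNA synthesis. SLC25A36 had normalized counts of 1594 and 1839 with DMSO, 2196 and 2092 at 6 h, 1937 and 1975 at 9 h, and 1726 and 1739 at 12 h. It was highest at 6 h and back within the DMSO range by 12 h, with log2 changes of 0.32 ± 0.06 at 6 h, 0.19 ± 0.06 at 9 h and 0.02 ± 0.06 at 12 h (adjusted p = 0.000332, 0.0207 and 0.854). SLC25A33 had 138 and 176 with DMSO, 113 and 136 at 6 h, 125 and 125 at 9 h, and 109 and 121 at 12 h and fell at 12 h (−0.44 ± 0.14). DMSO replicate 1 lay close to the highest Nutlin-3a library. Without DMSO replicate 2 the 9 h change of SLC25A36 was 0.29, still called. The call for SLC25A36 was lost at 9 h without DMSO replicate 1 (0.09), either 9 h library (0.21 and 0.18) and with no intensity trend (0.19) and with only the 2 groups compared (0.19). The call for SLC25A33 was lost at 12 h without DMSO replicate 2 (−0.26), 12 h replicate 1 (−0.37) and under 3 other settings (−0.45 to −0.44). SLC25A33 (−0.50 at 6 h, −0.49 at 9 h) was called without DMSO replicate 1. SLC25A36 and SLC25A42 were called in opposite directions at 6 h, where SLC25A30 rose more (0.48) and SLC25A29 fell more (−0.77). Promoters of SLC25A36 and of SLC25A42 are shown with CCAAT boxes and the E-box (CACGTG, the same on both strands) in capitals. They lie at chr3:140941586-140941885, plus strand, and chr19:19063744-19064043, plus strand.
SLC25A36: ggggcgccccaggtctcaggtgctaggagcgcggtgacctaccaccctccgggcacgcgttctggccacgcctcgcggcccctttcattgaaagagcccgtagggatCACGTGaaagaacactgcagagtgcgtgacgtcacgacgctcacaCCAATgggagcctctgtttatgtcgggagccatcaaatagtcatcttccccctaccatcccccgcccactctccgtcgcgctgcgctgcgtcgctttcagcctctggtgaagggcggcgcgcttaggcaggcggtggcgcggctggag
SLC25A42: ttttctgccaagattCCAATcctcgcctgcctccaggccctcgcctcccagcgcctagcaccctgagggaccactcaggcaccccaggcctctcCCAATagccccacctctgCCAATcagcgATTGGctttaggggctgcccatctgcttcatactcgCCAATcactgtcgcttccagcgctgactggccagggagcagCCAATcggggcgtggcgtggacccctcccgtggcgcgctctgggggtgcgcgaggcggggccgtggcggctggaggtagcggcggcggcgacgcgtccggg
SLC25A42 holds 6 CCAAT boxes, 5 of them on the gene's strand, and SLC25A36 holds 1 CCAAT box and 1 E-box. The 37 members with a window had 46 windows. A CCAAT box was in 21 of these windows, from 20 members (45.7% of windows, against 34.6% of all RefSeq windows). An E-box was in 8 windows, from 8 members (17.4% against 7.26%). GC boxes (GGGCGG on either strand) were in 65.2% of the members' windows, against 45.0% of all windows. The p53 half-site was in 1 member window, that of SLC25A25, or 2.17% against 6.63% of all windows. These are counts of letters in these windows and say nothing of binding.

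The mitoferrins SLC25A28 and SLC25A37 bring iron into mitochondria for heme and iron-sulfur cluster synthesis. SLC25A28 had normalized counts of 477 and 420.1 with DMSO, 350.2 and 388 at 6 h, 332 and 347 at 9 h, and 385 and 346 at 12 h. All Nutlin-3a libraries lay below both DMSO libraries, with log2 changes of −0.28 ± 0.09 at 6 h, −0.40 ± 0.09 at 9 h and −0.30 ± 0.09 at 12 h (adjusted p = 0.023, 0.002 and 0.0151). SLC25A37, the form best known from red cell precursors, had 1150.4 and 1032 with DMSO, 1082 and 1114 at 6 h, 1049 and 1014 at 9 h, and 1021 and 1023 at 12 h and was not called (0.01, −0.08 and −0.09). SLC25A46, an outer-membrane member with a part in mitochondrial shape, had 2219.7 and 2484 with DMSO, 2602 and 2507 at 6 h, 2648 and 2759 at 9 h, and 2701 and 2715 at 12 h. All its Nutlin-3a libraries lay above both DMSO libraries, and it rose at 9 h (0.20 ± 0.06) and 12 h (0.21 ± 0.06). SLC25A43 and SLC25A53, with no assigned substrate, were not called. The call for SLC25A28 was lost at 6 h without DMSO replicate 1 (−0.19), 6 h replicate 1 (−0.20) and under 4 other settings (−0.28 to −0.23), and at 12 h without DMSO replicate 1 (−0.20), 12 h replicate 2 (−0.22) and under 4 other settings (−0.30 to −0.20). The call for SLC25A46 was lost at 9 h without DMSO replicate 1 (0.12), 9 h replicate 2 (0.17) and with no intensity trend (0.20), and at 12 h without DMSO replicate 1 (0.12), 12 h replicate 2 (0.20) and with no intensity trend (0.21). SLC25A43 (0.32 at 6 h, 0.32 at 9 h, 0.28 at 12 h) was called without DMSO replicate 1. SLC25A37 (−0.17 at 12 h) and SLC25A46 (0.20 at 6 h) were called without DMSO replicate 2.

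Between 12 and 6 h of Nutlin-3a, 5 members rose and 7 fell, or 12.5% and 17.5% of those tested, against 14.4% and 17.1% of all genes. This comparison shares its libraries with those against DMSO. Members higher at 12 h than at 6 h were SLC25A42 (0.87 ± 0.11, adjusted p = 4.63e-06), SLC25A20 (0.39 ± 0.08, adjusted p = 0.000765), SLC25A12 (0.38 ± 0.07, adjusted p = 0.000262), SLC25A15 (0.29 ± 0.09, adjusted p = 0.0141) and SLC25A4 (0.24 ± 0.07, adjusted p = 0.0137). None of these 5 rose at 6 h against DMSO, where 12.5% of the members tested and 16.1% of all genes rose. The 5 were picked through the same 6 h libraries, which favours low values at 6 h, so their lack of a rise adds no support. Members lower at 12 h were SLC25A40 (−0.54 ± 0.10, adjusted p = 0.000337), SLC25A24 (−0.53 ± 0.05, adjusted p = 7.02e-08), SLC25A13 (−0.44 ± 0.06, adjusted p = 1.19e-05), SLC25A10 (−0.38 ± 0.09, adjusted p = 0.00212), SLC25A36 (−0.31 ± 0.06, adjusted p = 0.00068), SLC25A25 (−0.29 ± 0.07, adjusted p = 0.00358) and SLC25A5 (−0.22 ± 0.05, adjusted p = 0.00216). In all 12 cases both 12 h libraries lay beyond both 6 h libraries, as the values given with each carrier show. The 12 were picked by this same comparison, so this adds no support, and the share over all genes was not counted. SLC25A29, which had fallen by 6 h, showed no call between these times, with a log2 difference of 0.17 ± 0.09. The number that rose was 3 without 6 h replicate 1, 3 without 12 h replicate 2 and 3 with DESeq2. The call for SLC25A15 was lost for 12 against 6 h without 6 h replicate 1 (0.24), either 12 h library (0.30 and 0.27) and with DESeq2 (0.28).

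**Figure D5:**
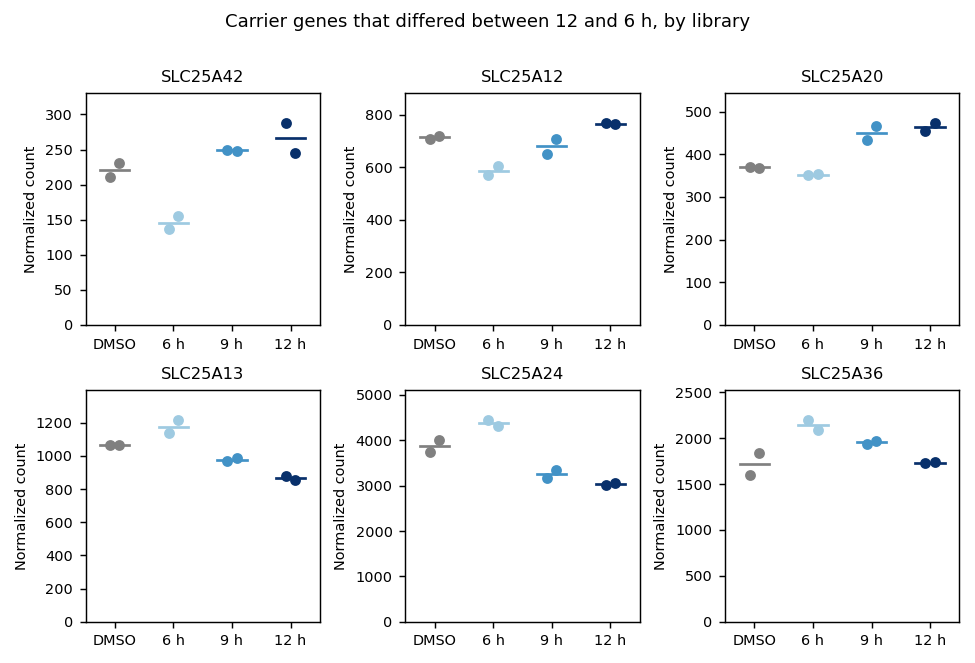
Normalized counts by library (points) and group mean (bar) of 6 members that differed between 12 and 6 h, in DMSO and after 6, 9 and 12 h of Nutlin-3a. SLC25A42, SLC25A12 and SLC25A20 are lowest at 6 h, and SLC25A13, SLC25A24 and SLC25A36 are highest at 6 h.

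Genes that work with the carriers were described from lists. Of all genes, 16.1%, 16.2% and 18.5% rose and 20.6%, 19.1% and 21.4% fell at 6, 9 and 12 h. Whether any list differs from all genes in these shares was not tested. Whether the calls of single genes in these lists held without a library or under other settings is not given. Of 16 genes of the import route for carrier proteins, 2, 1 and 1 rose and 4, 5 and 6 fell at 6, 9 and 12 h, with median log2 changes of −0.01, −0.07 and −0.11. TOMM40, the channel of the outer membrane translocase, had 2627 and 2365 with DMSO, 1755 and 1867 at 6 h, 1659 and 1659.9 at 9 h, and 1533 and 1561 at 12 h and fell at each time (−0.46, −0.59 and −0.69), as did TIMM10, a small TIM chaperone (−0.19, −0.33 and −0.35), while TOMM7 rose (0.30, 0.32 and 0.36). The Nutlin-3a libraries of TOMM7 ranged over 1552 to 1693, against 1077 and 1574 in the DMSO libraries. Of 11 regulators of mitochondrial biogenesis, 0, 0 and 0 rose and 4, 5 and 6 fell at 6, 9 and 12 h, with medians of −0.15, −0.23 and −0.43. At an unadjusted p under 0.05 (limma), 1, 0 and 0 rose at 6, 9 and 12 h, and 0 by edgeR's and 0 by DESeq2's adjusted p. NRF1, a transcription factor for respiratory genes, fell (−0.29, −0.58 and −0.78), as did TFAM, which packages mitochondrial DNA (−0.33, −0.56 and −0.71), and MYC (−0.66, −0.72 and −0.84).

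Enzymes on either side of the carriers went both ways, as did all genes. Of all genes, 16.1%, 16.2% and 18.5% rose and 20.6%, 19.1% and 21.4% fell at 6, 9 and 12 h. Of 11 iron-sulfur cluster and heme genes, 1, 1 and 1 rose and 2, 3 and 3 fell at 6, 9 and 12 h. ISCU, the scaffold on which iron-sulfur clusters are built, had normalized counts of 1347 and 1242 with DMSO, 1837 and 1836 at 6 h, 2371 and 2421 at 9 h, and 2598 and 2661 at 12 h. It rose at each time (0.51, 0.89 and 1.02), and each later time lay above the one before. TFRC, the transferrin receptor (−0.24, −0.25 and −0.39), fell at each time, and GLRX5, a cluster transfer protein (−0.06, −0.25 and −0.30), at 9 and 12 h. Of 7 folate and serine enzymes, 4, 2 and 2 rose and 2, 2 and 4 fell at 6, 9 and 12 h. MTHFD1L, a mitochondrial enzyme that makes formate, rose (0.45, 0.48 and 0.53), while the cytosolic SHMT1 (−0.89, −1.12 and −1.51) and MTHFD1 (−0.58, −0.76 and −0.94) fell. The mitochondrial enzymes did not move alike. SHMT2 (0.19, 0.01 and −0.30) and MTHFD2 (0.72, −0.01 and −0.36) rose at 6 h and fell at 12 h. ALDH1L2 rose at each time (0.27, 0.26 and 0.25), and MTHFD2L was not called. Of 6 tested shuttle enzymes, 1, 0 and 1 rose and 2, 1 and 1 fell at 6, 9 and 12 h. At an unadjusted p under 0.05 (limma), 1 rose at 9 h, and 0 by edgeR's and 0 by DESeq2's adjusted p. GPD2, the mitochondrial glycerol phosphate dehydrogenase, fell (−0.37, −0.63 and −0.57), and GPD1L fell at 6 h and rose at 12 h (−0.27, 0.13 and 0.46), while MDH1, the cytosolic malate dehydrogenase, was not called (0.13, 0.14 and 0.13).

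The counts in the following lists stand beside 16.1%, 16.2% and 18.5% of all genes that rose and 20.6%, 19.1% and 21.4% that fell. Of 7 genes of citrate use and fatty acid synthesis, 1, 1 and 0 rose and 4, 1 and 2 fell at 6, 9 and 12 h. At an unadjusted p under 0.05 (limma), 1 rose at 12 h, and 1 by edgeR's and 0 by DESeq2's adjusted p. CS, citrate synthase, fell at each time (−0.19, −0.20 and −0.29), whereas SCD, a fatty acid desaturase, rose at 6 and 9 h and fell at 12 h (0.26, 0.13 and −0.23), and ACLY, which splits citrate in the cytosol, was not called (−0.06, 0.08 and 0.10). Of 8 tested carnitine and beta-oxidation genes, 3, 2 and 3 rose and 0, 0 and 0 fell at 6, 9 and 12 h. At an unadjusted p under 0.05 (limma), 0, 1 and 1 fell at 6, 9 and 12 h, and 0 by edgeR's and 0 by DESeq2's adjusted p. SLC22A5, the plasma membrane carnitine transporter, rose at 12 h (0.40 ± 0.13), HADHB, a subunit of the trifunctional protein, rose at each time (0.21, 0.18 and 0.14), and ACADVL, an acyl-CoA dehydrogenase, rose at 12 h (0.13 ± 0.05). Among other transporters of the inner membrane, of 11 pyruvate carrier, sideroflexin and ABC transporter genes, 1, 1 and 2 rose and 4, 3 and 4 fell at 6, 9 and 12 h. SFXN1, a mitochondrial serine transporter, fell (−0.24, −0.26 and −0.32), SFXN3 rose (0.29, 0.32 and 0.31), and ABCB10 fell (−0.21, −0.33 and −0.38). Of 6 calcium uniporter genes, 2, 1 and 2 rose and 1, 2 and 2 fell at 6, 9 and 12 h. MCU, the pore, fell at each time (−0.19, −0.18 and −0.22), its relative MCUB fell at 9 and 12 h (−0.11, −0.43 and −0.53), and MICU2, a calcium sensor, rose at 12 h (0.22 ± 0.06). Of the 3 VDAC porins of the outer membrane, VDAC2 rose at each time (0.20, 0.23 and 0.22), VDAC3 fell at 6 h (−0.17 ± 0.05), and VDAC1 was not called (−0.03, −0.06 and −0.05). The Nutlin-3a libraries of VDAC2 ranged over 2275 to 2344, against 1810 and 2171 in the DMSO libraries. Of 4 family members under other symbols, UCP2 was called at 9 and 12 h as given above, and MTCH1 (0.05, 0.01 and −0.03) and UCP3 (−0.45, −0.24 and −0.55) were not called.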

How the data were processed

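The deposited table gave normalized counts, a signal made by the authors by dividing gene counts by a size factor for each library. Per the submitters' processing notes, STAR and DESeq2 were used on genome build hg19. No source used here names the tool that counted reads, whether it used strand, or the gene annotation. Every value was a whole multiple of the value of 1 read (100% in each library, tolerance 1e-06), so reads were recovered. In the 9 h replicate 1 library this value lies too near 1 for an automatic test, and the same arithmetic was used. The 3 entries for reads in no gene, ambiguous or aligned in several places held 28.2 to 29.1% of each library and were left out. The authors also deposited DESeq2 tables with log2 fold changes (DMSO over Nutlin-3a, sign turned here), p-values with and without adjustment, and the test statistic, a score.

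Differences were tested in R 4.3.3 by limma 3.58.1, whose prior spread followed intensity, on log2(normalized count + 1). The fit took in all 8 libraries (residual degrees of freedom 4, prior 15.5) and the 14074 genes that reached 10 in 2 or more libraries. Fold changes on this scale understate changes of low genes. Alternatives were edgeR 4.0.16 and DESeq2 1.42.0 on recovered reads, the authors' tables, TMM and quantile scaling, pseudocounts of 0.5 and 5, no filter or a mean of at least 50, no trend, group weights, only the 2 groups compared, a replicate block, and each library left out. A fit without 1 library assumes that the remaining library of that group varies like the others. Code was tested on simulated data. Exon lengths, overlaps and pseudogene names came from GENCODE v29 (GRCh38) by symbol, for all 44 members. Promoters were matched by symbol to RefSeq windows for 37 members, in 46 windows. SLC25A6 and SLC25A31 had no row in the table and were not analysed here. One member is in the counts and is not reported here by name or in figures, and 1 promoter window is not shown.

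Members, role groups and companion lists were chosen with earlier results of these data known. Full values were given for the 6 largest called increases and 6 largest called decreases in each comparison and, in each role group, for the member with the highest mean and that with the smallest p at 12 h. From each companion list up to 3 genes with the smallest p at 12 h were named. Others were named for completeness after their values were seen.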

Additional observations from a re-analysis of the deposited data

Results flagged for a closer look

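For 12 members the effect of Nutlin-3a differed between exposure times, by the test of 12 h against 6 h itself (limma, adjusted over all genes). The log2 difference, 12 h minus 6 h, was positive for SLC25A42 (0.87), SLC25A20 (0.39), SLC25A12 (0.38), SLC25A15 (0.29) and SLC25A4 (0.24). It was negative for SLC25A40 (−0.54), SLC25A24 (−0.53), SLC25A13 (−0.44), SLC25A10 (−0.38), SLC25A36 (−0.31), SLC25A25 (−0.29) and SLC25A5 (−0.22). Among them, SLC25A24 is the member that was called in opposite directions against DMSO, higher at 6 h and lower at 9 and 12 h. Culture time and exposure time cannot be told apart in this design, since the culture time of the DMSO libraries is not given in the sources used here.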

How the results depend on the processing

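No called change of a member turned its sign under any alternative. Of the calls at 6, 9 and 12 h against DMSO and for 12 against 6 h, 8 of 17, 7 of 15, 10 of 19 and 9 of 12 held under every alternative run. All 63 held with pseudocounts of 0.5 and 5, without a filter, with a mean of at least 50 and with the replicate block. Counts that moved by over 1.5 times were, without an intensity trend, 3 higher and 7 lower at 6 h and 2 higher at 9 h. With DESeq2 they were 7 lower at 6 h, 3 higher at 9 h and 3 higher for 12 against 6 h, and the authors' deposited table had 7 lower at 6 h and 3 higher at 9 h. With only the 2 groups compared 3 were higher at 9 h. At 12 h 10 were higher with TMM scaling, 10 with edgeR and 11 with quantile normalization. Among counts not past this limit, 8 were lower at 6 h with group weights and 8 with only the 2 groups compared, against 12 in the main test. Leaving out 1 library gave 4 to 9 higher and 6 to 12 lower at 6 h, 2 to 8 and 8 to 11 at 9 h, 3 to 9 and 9 to 14 at 12 h, and 3 to 6 and 6 to 8 for 12 against 6 h. The cause of these shifts was not tested. The authors' tables do not cover 12 against 6 h. The replicate numbers were not taken to pair the libraries, since the correlation of their deviations was over 0.1 for 3 of the 6 pairs of groups and not for the others, and ranged from −0.229 to 0.156 between groups. With the replicate block the counts were 5 higher and 12 lower at 6 h, 5 and 10 at 9 h, 6 and 13 at 12 h, and 5 and 7 for 12 against 6 h, so it changed no call. Of the 97 values that were not called, 38 had the other sign under some alternative (64 instances), none of them then called. The floor of 3 reads covers counting error only, while standard errors and p-values come from the spread between libraries.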
